A study of Homo sapiens with 37 samples.

Results

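The enzymes of heme synthesis, with the carrier that brings glycine into the mitochondrion, were followed as 9 genes in 37 libraries of K562, an established human erythroleukemia cell line. The members were chosen by symbol from the textbook pathway: *SLC25A38*, *ALAS1*, *ALAS2*, *ALAD*, *UROS*, *UROD*, *CPOX*, *PPOX* and *FECH*, which is 9 of the 32055 genes counted. The enzyme of the third step was not analysed here. All 9 passed the filter on low counts and had UMIs in every library.

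The 26 KO libraries came from K562 cells given Cas9 and 1 of 2 gRNAs against *ZBTB7A*, a zinc finger transcription repressor. The 11 Control libraries came from cells given the vector with no gRNA. Cells of both kinds were sorted singly and expanded, and the study speaks of knockout and control clones. The labels name a library by genotype and well barcode alone, so clone, gRNA and day are unknown, several libraries may stem from 1 clone, and each p-value measures only the spread between these libraries. RNA was counted by bulk SCRB-seq, a 3′ end method in which each cDNA molecule carries a unique molecular identifier (UMI). Totals ran from 563235 to 4710809 UMIs in Control (median 3518944) and from 1070250 to 4270901 in KO (median 2030965). Levels are log2 CPM, the log2 of UMI counts scaled to library size after TMM normalization with a prior count of 2. A 3′ count does not grow with transcript length, so levels of different genes were set side by side without a length correction.

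Before the members, the targeted gene and the identity of the line were examined. *ZBTB7A* itself ran from 5.27 to 6.19 log2 CPM in Control (median 5.84) and from 5.44 to 6.41 in KO (median 5.94; log2 fold change 0.12, SE 0.09, edgeR adjusted p = 0.331), and a 3′ count does not read the edited site, so it does not check the labels. Of 17 erythroid markers 16 had a matched row and 14 were tested. The 16 rows summed to 4308 to 8957 CPM in Control and 3185 to 9989 in KO. This sum and those of the lists below are scaled to library totals without TMM. *HBG1* and *HBG2* made up the largest parts of the erythroid sum (mean 1594 and 2446 CPM after TMM). *EPOR*, *SLC4A1* and *TAL1* rose and *GATA1*, *KLF1*, *NFE2* and *TFRC* fell (edgeR, Benjamini-Hochberg adjusted p below 0.05). These were 50% of the erythroid markers tested, beside 33.8% of all tested genes. *AHSP* and *EPB42*, genes of late red cell precursors, were below the filter. The megakaryocytic list (6 of 7 with a matched row) summed to 0.979 to 9.86 CPM in Control and 2.69 to 60.9 in KO, with *GP1BA* alone tested (log2 fold change 3.35, SE 0.62, edgeR adjusted p = 6.63e-05). The platelet genes *PF4* and *PPBP* had 6 and 7 UMIs over all 37 libraries. The myeloid list (7 of 8) summed to 82.8 to 115 and 47.7 to 103 CPM, of which *CD33* fell (log2 fold change -0.66) and *ITGAM* rose (1.23). The lymphoid list (3 of 4) stayed under the filter, at 0.575 to 3.98 and 0.656 to 4.96 CPM. In bulk RNA, fewer cells of a kind and less RNA per cell cannot be told apart.

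Heme is made from glycine and succinyl-CoA in steps that begin and end in the mitochondrion and pass through the cytosol in between. The first step, the condensation to 5-aminolevulinate by ALA synthase, limits the rate and exists in a housekeeping form, ALAS1, which heme represses, and in an erythroid form, ALAS2, which GATA1 switches on and which is translated only as iron allows. Red cell precursors raise the whole pathway to feed hemoglobin, and K562 cells keep an embryonic and fetal erythroid program in which it is active. Inherited defects of these genes cause the porphyrias and, for ALAS2 and SLC25A38, sideroblastic anemia.

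Sequences upstream of the 2 ALA synthase genes are shown first, since *ALAS2* rose and *ALAS1* fell in KO, with those of 2 later enzymes that rose. They are from RefSeq (GRCh38.p14), whose table of promoters holds 8 of the 9 members in 10 windows of 250 bases before a start. *UROS* had no entry. Capitals mark matches to the letters that GATA factors bind, searched on both strands as AGATAA or else as AGATAG, and likewise as TGATAA or else as TGATAG, which 22.3% of all 35116 windows in the table hold. The 250 bases before *ALAS2* (chrX:55030978-55031227, minus strand) hold 1 match, 127 bases before the start, and also 1 match to CCNCACCC, the CACC box of Krüppel-like factors, which reads GGGTGGGG on the gene's strand at 56 bases before it and overlaps no GATA match. The CACC letters occur in 16.7% of all windows.
*ALAS2* promoter: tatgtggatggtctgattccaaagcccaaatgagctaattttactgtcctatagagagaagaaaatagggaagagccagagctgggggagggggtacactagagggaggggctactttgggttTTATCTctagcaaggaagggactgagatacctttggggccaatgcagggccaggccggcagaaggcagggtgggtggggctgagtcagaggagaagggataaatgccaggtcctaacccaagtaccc
The 250 bases before *ALAS1* (chr3:52197833-52198082, plus strand) hold no match to either motif.
*ALAS1* promoter: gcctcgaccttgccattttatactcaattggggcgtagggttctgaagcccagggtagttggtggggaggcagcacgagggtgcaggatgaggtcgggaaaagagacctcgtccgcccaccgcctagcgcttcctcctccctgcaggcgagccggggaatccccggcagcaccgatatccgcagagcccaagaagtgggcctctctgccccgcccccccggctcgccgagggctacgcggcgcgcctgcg
Those before *CPOX* hold 2 GATA matches, at 207 and 125 bases before the start, and the part upstream of the annotated exon (213 bases, chr3:98593649-98593861, minus strand) is shown because it carries both.
*CPOX* promoter: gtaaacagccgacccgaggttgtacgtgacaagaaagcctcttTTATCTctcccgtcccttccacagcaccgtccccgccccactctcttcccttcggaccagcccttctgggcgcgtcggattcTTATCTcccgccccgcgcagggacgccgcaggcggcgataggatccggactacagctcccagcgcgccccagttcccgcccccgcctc
*PPOX* has 2 starts in the table, and only the second holds GATA letters, 63 bases upstream, in this stretch of 30 bases (chr1:161166571-161166600, plus strand). The stretch also holds a match to the CACC letters, GGGTGTGG at 74 bases before that start, which does not overlap the GATA match and is left in lower case. It lies inside the annotated gene, which begins at chr1:161166056, and the window of that second start overlaps an annotated exon.
*PPOX* stretch: agggtgtggcccTTATCTgcacccagcaga
*ALAD* had 1 match in 1 of its 2 windows, and *SLC25A38*, *UROD* and *FECH* had none. The CACC letters were found in no window of the members other than those of *ALAS2* and *PPOX*. A match is a run of letters and was not tested for binding.

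The *ALAS2* transcript carries near its 5′ end the letters of an iron-responsive element, the hairpin that iron regulatory proteins grip to hold back translation when iron is scarce. The loop letters CAGTGC are in capitals in these 23 bases, which are bases 12 to 34 of the transcript (chrX:55030944-55030966, minus strand).
*ALAS2* element: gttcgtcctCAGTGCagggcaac
The first 50 bases of *ALAS1* do not hold the loop letters. UMI counts read RNA and not translation, so this element's action is not measured here.

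Whether loss of ZBTB7A moved the pathway was asked by comparing KO with Control. *ALAS2*, *UROD*, *CPOX* and *PPOX* rose in KO, *ALAS1* fell, and *SLC25A38*, *ALAD*, *UROS* and *FECH* did not pass the test. Thus 5 of 9 members (55.6%) passed an adjusted p of 0.05 (edgeR's quasi-likelihood test, Benjamini-Hochberg over 10661 genes), beside 33.8% of all tested genes, of which 17.7% were higher and 16.2% lower. *ALAS2* and *PPOX*, 2 of the 9, were also past an absolute log2 fold change of 0.5, both upward, beside 10.2% of tested genes (6.65% higher and 3.53% lower). The members' median log2 fold change was 0.25 and that of all tested genes -0.0046. In none of the members were the 2 groups free of overlap, which was so for 0.281% of tested genes.

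**Figure D1:**
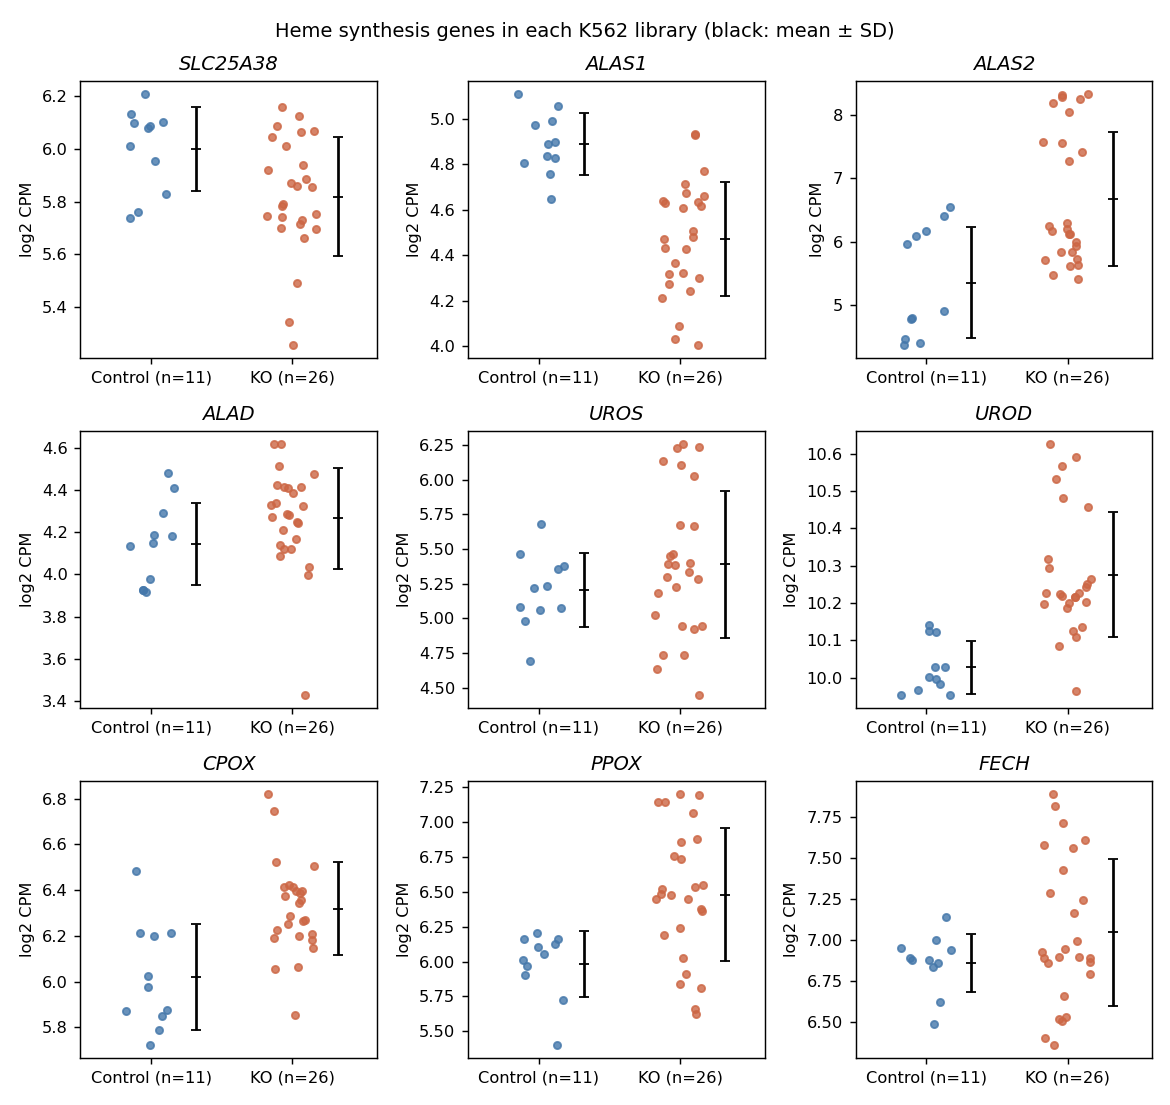
Level of each member in each library, in log2 CPM (UMIs scaled to library size after TMM, on a separate y axis for each gene), for 11 Control and 26 KO libraries, with the mean and SD in black. *ALAS2* falls into an upper and a lower set of libraries in both groups, and 21 of 26 KO libraries lie above every Control library for *UROD*.

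*SLC25A38* (chr3:39383370-39397351 in GENCODE on GRCh38, plus strand) encodes the glycine carrier of the inner mitochondrial membrane. It ran from 5.74 to 6.21 log2 CPM in Control (median 6.08) and from 5.26 to 6.16 in KO (median 5.82), on 34 to 307 UMIs per library. The highest Control level was passed by 0 KO libraries, and 8 fell short of the lowest. The log2 fold change of -0.17 (SE 0.07) did not pass (edgeR adjusted p = 0.0600). It passed when any 1 of 7 libraries was left out (KO library AAATTG, KO library ATTACT, KO library CTGCGG, KO library GGCCAC, KO library TTATTG, Control library ATATAG or Control library GGGATT), at a log2 fold change of -0.18 to -0.19 and an edgeR adjusted p of 0.0365 to 0.0494.

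*ALAS1* (chr3:52198086-52214327, plus strand), the housekeeping ALA synthase, was the only member that fell. Control libraries spanned 4.65 to 5.11 log2 CPM (median 4.89) and KO libraries 4.01 to 4.93 (median 4.48), with 20 of 26 KO libraries under the lowest Control and none over the highest. The difference was a log2 fold change of -0.43 (SE 0.08, edgeR adjusted p = 7.43e-05). The gene was thinly counted, with 16 to 142 UMIs per library.

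*ALAS2* (chrX:55009055-55030977, minus strand), the erythroid ALA synthase, had the largest change of the members. Its level ran from 4.37 to 6.55 log2 CPM in Control (median 4.91) and from 5.41 to 8.33 in KO (median 6.18), on 11 to 620 UMIs. All 26 KO libraries lay above the Control median and 10 lay above the highest Control, while none lay below the lowest. The log2 fold change was 1.41 (SE 0.39, edgeR adjusted p = 0.00577). The spread was wide as well: the SD over KO libraries, 1.06 log2 units, exceeded that of 98.2% of tested genes. The last exon of *ALAS2* (289 bases) overlaps *APEX2*, a DNA repair nuclease gene on the other strand, by 3 bases (chrX:55009055-55009057), and the strand setting of the counting is not given in the sources used here. *APEX2*, named after its values were seen, had 11 to 86 UMIs per library and a log2 fold change of 0.37 (SE 0.11, edgeR adjusted p = 0.00928).

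*ALAD* (chr9:113386312-113401290, minus strand) joins 5-aminolevulinate into porphobilinogen in the cytosol and was the least abundant member. It ran from 3.92 to 4.48 log2 CPM in Control (median 4.15) and from 3.43 to 4.62 in KO (median 4.28), the groups lying almost wholly over each other. The log2 fold change was 0.12 (SE 0.08, edgeR adjusted p = 0.268), on 8 to 82 UMIs per library.

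*UROS* (chr10:125784980-125823258, minus strand) closes the tetrapyrrole ring as uroporphyrinogen III. Its Control range was 4.69 to 5.68 log2 CPM (median 5.22) and its KO range, 4.44 to 6.26 (median 5.36), reached past it on both sides. In KO, 6 libraries were above the highest Control and 2 below the lowest. The log2 fold change of 0.28 (SE 0.16) did not pass (edgeR adjusted p = 0.188).

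*UROD* (chr1:45010950-45015575, plus strand), which removes carboxyl groups to yield coproporphyrinogen III, was by far the most abundant member, with a mean above that of 99.3% of tested genes. It was also the steadiest, at 9.95 to 10.14 log2 CPM in Control (median 10.002) and 9.96 to 10.63 in KO (median 10.23), on 566 to 5114 UMIs. In 21 of 26 KO libraries it exceeded every Control library. The rise was small, with a log2 fold change of 0.25 (SE 0.05, edgeR adjusted p = 2.31e-04).

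*CPOX* (chr3:98579446-98593648, minus strand) carries the path back into the mitochondrion by making protoporphyrinogen IX. It ran from 5.72 to 6.48 log2 CPM in Control (median 5.98) and from 5.85 to 6.82 in KO (median 6.32), and 4 KO libraries exceeded every Control library. *CPOX* rose by 0.29 on the log2 scale (SE 0.08, edgeR adjusted p = 0.00265).

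*PPOX* (chr1:161166056-161178013, plus strand) oxidizes that product to protoporphyrin IX. Control libraries spanned 5.40 to 6.20 log2 CPM (median 6.05) and KO libraries 5.62 to 7.20 (median 6.48), with 19 of 26 KO libraries above the highest Control. For *PPOX* the log2 fold change was 0.52 (SE 0.15, edgeR adjusted p = 0.00619). It lay under the fold threshold of 0.5 by limma-voom, at 0.43 (adjusted p = 0.0145), and at 0.49 when any 1 of 7 libraries was left out (KO library TAAGAT, KO library TGTTTA, KO library ATCAAA, KO library CCCTGG, KO library TTAGTT, Control library AAAGTT or Control library GTTTAT), with an edgeR adjusted p of 0.00816 to 0.0137.

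*FECH* (chr18:57544377-57586732, minus strand), the ferrochelatase that inserts ferrous iron and holds an iron-sulfur cluster, spanned 6.49 to 7.14 log2 CPM in Control (median 6.88) and 6.36 to 7.89 in KO (median 6.91). The medians lay close together, yet 10 KO libraries were above the highest Control and 2 below the lowest. The log2 fold change of 0.24 (SE 0.14) did not pass (edgeR adjusted p = 0.184).

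**Figure D2:**
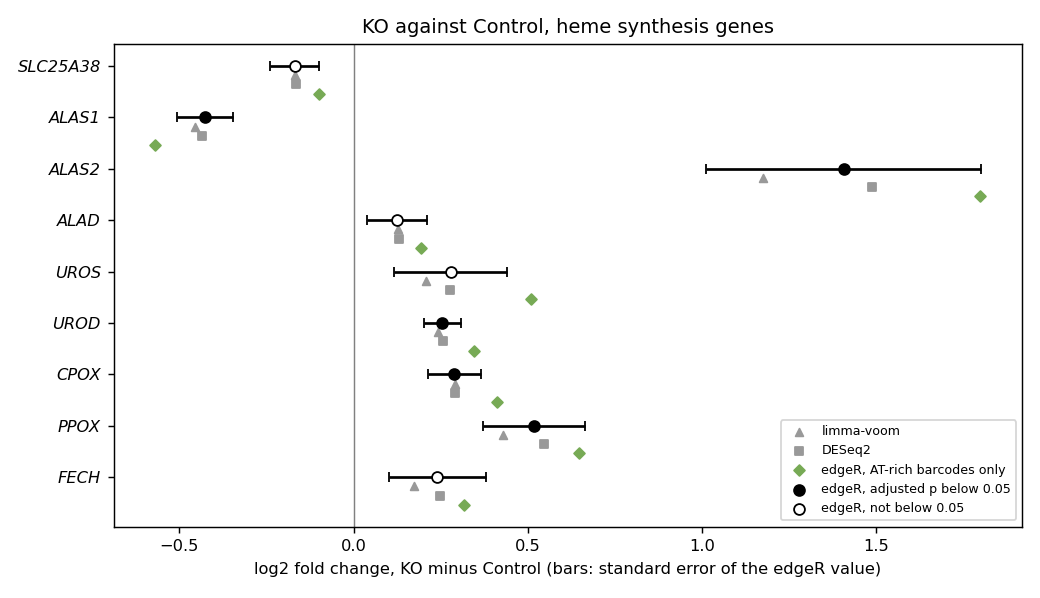
Log2 fold change of each member, KO minus Control (x axis), in pathway order, by edgeR (circles, filled where the adjusted p is below 0.05). Bars are the standard error derived from edgeR's F statistic. Values from limma-voom, DESeq2 and libraries with AT-rich barcodes alone are shown as well. *ALAS2* lies at 1.41 and *ALAS1* at -0.43, and no member changes sign between these fits.

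Barcodes were unevenly shared between the groups. Counting G and C among the 6 bases, Control had 8 AT-rich, 2 mixed and 1 GC-rich barcodes and KO had 12, 2 and 12. Within the AT-rich libraries alone, the log2 fold change was 1.80 for *ALAS2* (edgeR adjusted p = 0.0129), -0.57 for *ALAS1* (1.03e-04), 0.65 for *PPOX* (0.0133), 0.41 for *CPOX* (6.80e-04) and 0.35 for *UROD* (1.78e-04), all still past the threshold. *UROS* was at 0.51 (edgeR adjusted p = 0.0520), *FECH* at 0.32 (0.231), *ALAD* at 0.19 (0.143) and *SLC25A38* at -0.10 (0.327). The GC-rich class held 1 Control library and gave no value of its own.

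By mean level, *ALAS2* stood at place 6 among the members in Control and at place 3 in KO. In Control, mean log2 CPM fell from *UROD* (10.03 ± 0.07, SD, n = 11) to *FECH* (6.86 ± 0.18), followed by *CPOX* (6.02 ± 0.23), *SLC25A38* (6.0 ± 0.16), *PPOX* (5.98 ± 0.24), *ALAS2* (5.35 ± 0.88) and *UROS* (5.20 ± 0.27), whose neighbours did not differ beyond 1 SD of their difference within a library. *ALAS1* (4.89 ± 0.14) and *ALAD* (4.14 ± 0.20) came last, each apart from the one before. In KO, *UROD* (10.28 ± 0.17, SD, n = 26) again led, and *FECH* (7.05 ± 0.45), *ALAS2* (6.67 ± 1.06), *PPOX* (6.48 ± 0.48) and *CPOX* (6.32 ± 0.20) followed with no neighbours beyond their spread. *CPOX* exceeded *SLC25A38* (5.82 ± 0.22) in all 26 KO libraries. *SLC25A38* and *UROS* (5.39 ± 0.53) were not apart, nor were *ALAS1* (4.47 ± 0.25) and *ALAD* (4.26 ± 0.24), but *UROS* exceeded *ALAS1* in 24 of 26 libraries.

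The balance of the ALA synthases can be read within a library with no scaling, as the share of *ALAS2* in the UMIs of *ALAS1* and *ALAS2*. In Control it ran from 40.7% to 77.6% with a median of 48.8%, and 5 of 11 libraries had more *ALAS2* than *ALAS1*. In KO it ran from 58.4% to 94.3% with a median of 79.8%, all 26 libraries had more *ALAS2*, and 14 lay above the highest Control. The lowest Control share, in GTTTAT, rested on 27 UMIs (exact 95% binomial interval 22.4% to 61.2%), and the highest, in ATGAAT, on 194 *ALAS2* and 56 *ALAS1* UMIs (71.9% to 82.6%). The lowest KO share, in GGCCAC, had an interval of 49.7% to 66.7% and the highest, in ATCAAA, of 92.0% to 96.0%. Intervals cover counting error only. The medians differed by 31.0 percentage points. The difference fell to as little as 21.1 when a library of the lower Control set, such as AAAGTT, was left out. The reason is that the Control median falls at the edge of the step between its 2 sets. The groups overlapped, and no test was made on the shares.

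**Figure D3:**
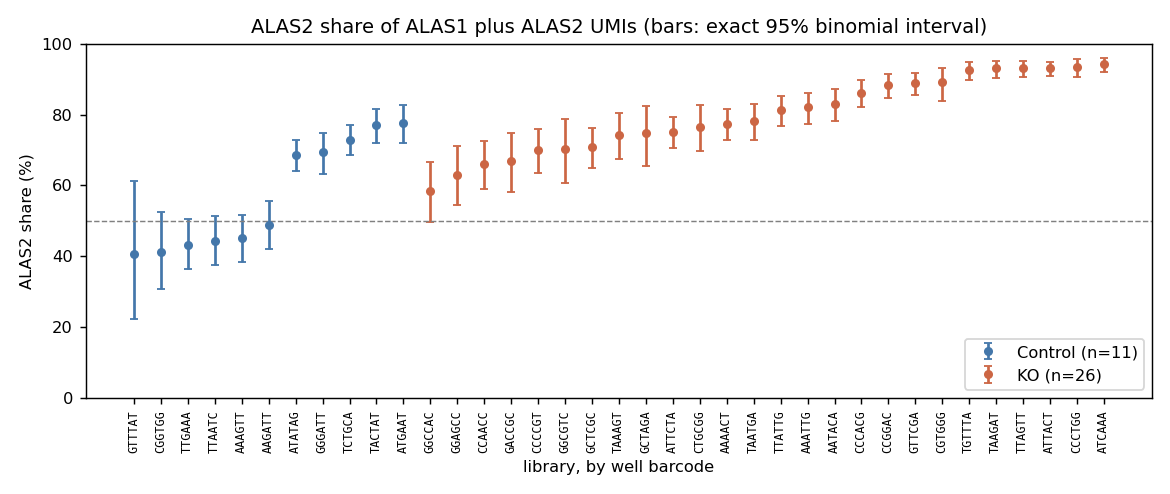
Share of *ALAS2* among *ALAS1* and *ALAS2* UMIs in each library (y axis, percent), with libraries in order of share within Control and KO on the x axis and exact 95% binomial intervals as bars. Control steps from 48.8% to 68.5%, and every KO library lies above 50%.

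The libraries did not form 1 cloud for *ALAS2*. In KO, 16 libraries reached at most 6.29 log2 CPM and the other 10 at least 7.27, and in Control 6 reached at most 4.91 and 5 at least 5.96. Because of these steps no correlation with the other members over pooled libraries is given, and the sets below are described by their values and were not tested. The 10 upper KO libraries had totals of 1070250 to 2164774 UMIs with 5 AT-rich, 1 mixed and 4 GC-rich barcodes, and the 16 lower ones totals of 1348241 to 4270901 with 7, 1 and 8. The part of depth in the step was not tested.

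The 10 KO libraries highest for *ALAS2* were also the 10 highest for *FECH* and for *PPOX*. *FECH* ran from 7.16 to 7.89 log2 CPM in them and from 6.36 to 6.99 in the other 16, and *PPOX* from 6.55 to 7.20 and from 5.62 to 6.54. Of the 10, 8 were also among the 10 highest for *UROD* and for *CPOX*, whereas 5 were for *SLC25A38* and 4 each for *ALAS1* and *ALAD*. These overlaps are counts over ranks in the same libraries and were not tested. *HBA2* and *FAM210B* also had the same 10 libraries highest. How many of all tested genes share these 10 was not counted, so no overlap is read as particular to the pathway.

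*UROS* took opposite ends of its range within the upper libraries. The 6 highest for *ALAS2* (8.04 to 8.33 log2 CPM) were the 6 highest of all KO libraries for *UROS*, at 6.02 to 6.26, and also for *UROD*, at 10.46 to 10.63. The next 4 (7.27 to 7.56) were the 4 lowest of all KO libraries for *UROS*, at 4.44 to 4.73. The remaining 16 lay between, at 4.92 to 5.68. *FECH* in the same 6 and 4 libraries was 7.56 to 7.89 and 7.16 to 7.43, and *PPOX* 6.88 to 7.20 and 6.55 to 6.85. *GLRX5*, needed for iron-sulfur cluster assembly, stood apart in the 4 alone, at 8.35 to 8.48. It ran from 7.59 to 7.84 in the 6 and from 7.50 to 7.77 in the remaining 16. The share of all tested genes that part these sets of libraries was not counted.

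Markers of the lineage followed the same libraries. The 10 upper libraries were the 10 highest KO libraries for *TAL1*, an erythroid transcription factor (6.64 to 7.06 log2 CPM beside 5.76 to 6.21 in the other 16), and for *SLC4A1*, the red cell anion exchanger (4.30 to 5.68 beside 0.89 to 2.79). They were also the 10 highest for the platelet glycoprotein gene *GP1BA*, at 3.78 to 5.45 beside 0.39 to 2.89. Both *SLC4A1* and *GP1BA* were thinly counted, at 3 to 78 and 1 to 88 UMIs per KO library. The part of these markers in the members' values was not tested.

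In Control, the 5 libraries highest for *ALAS2* were also the 5 highest for *CPOX*, at 6.03 to 6.48 log2 CPM beside 5.72 to 5.98 in the other 6. *UROD* shared 4 of the 5. *PPOX* shared 3, and its range in the upper libraries, 5.90 to 6.20, overlapped the 5.40 to 6.12 of the others. *FECH* shared only 2, and its range in the upper libraries, 6.49 to 7.0, overlapped the 6.86 to 7.14 of the others.

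**Figure D4:**
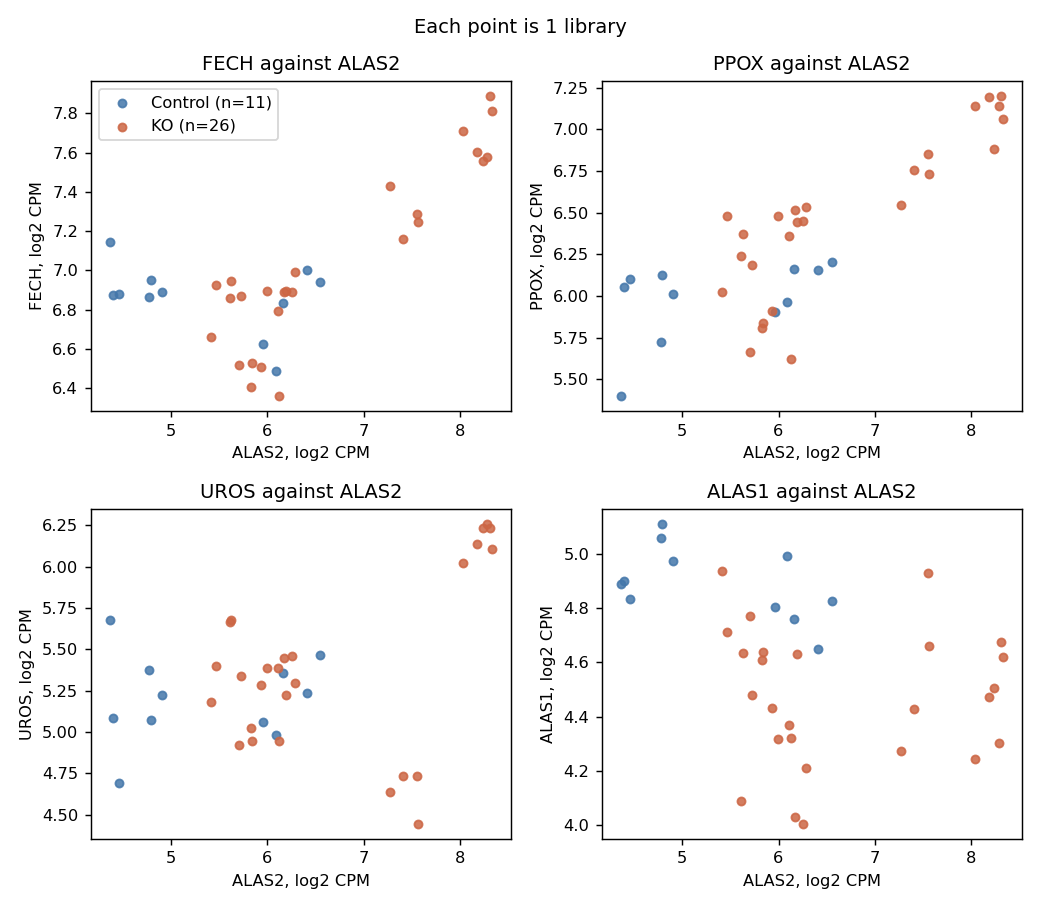
*FECH*, *PPOX*, *UROS* and *ALAS1* (y axes, log2 CPM) against *ALAS2* (x axis, log2 CPM) in 11 Control and 26 KO libraries, 1 point a library. The 10 KO libraries at 7.27 or more for *ALAS2* are the highest for *FECH* and *PPOX*, and for *UROS* they split into 6 at 6.02 or more and 4 at 4.73 or less.

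One KO library, GGCCAC, lay within the Control range for all 9 members. It was the lowest KO library for *ALAS2* (5.41 log2 CPM) and *UROD* (9.96) and the highest for *ALAS1* (4.93) and *SLC25A38* (6.16). Without it the log2 fold change of *ALAS1* was -0.45, and *SLC25A38* passed as given above, so that 6 of 9 members passed.

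**Figure D5:**
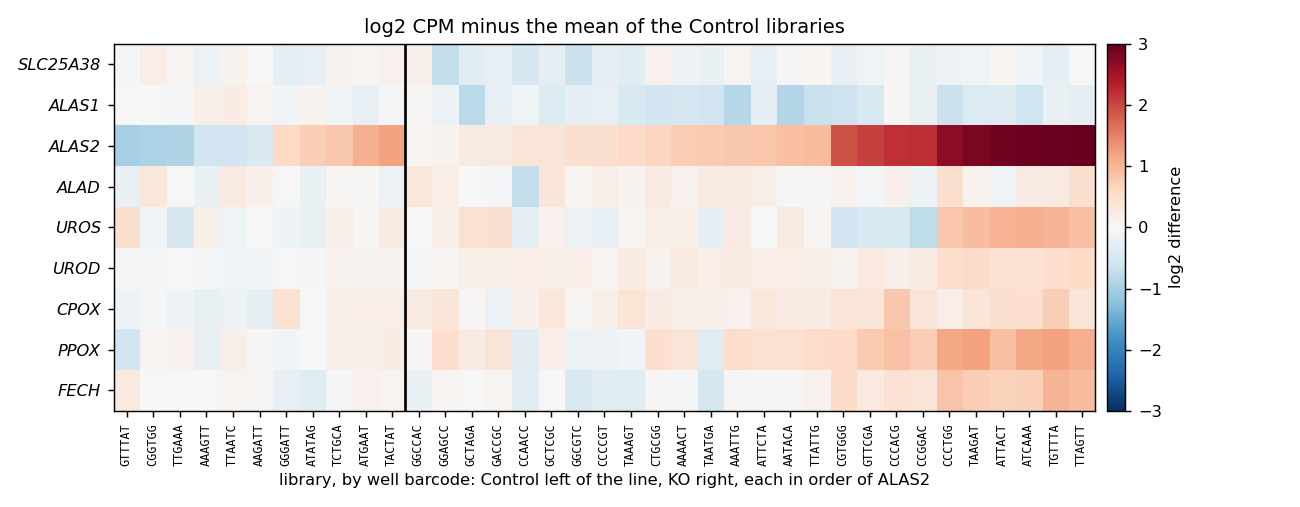
Log2 CPM of each member minus its mean over the Control libraries (color, log2 units), with members in pathway order down the y axis and libraries along the x axis, Control left of the line and KO right, each in order of *ALAS2*. GGCCAC, the first KO library, is near 0 throughout, and the 10 KO libraries on the right are high for *ALAS2*, *PPOX* and *FECH*.

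The genes whose level was most like that of *ALAS2* over the 26 KO libraries, among tested genes of at least 20 CPM, were *TAL1* (Pearson r = 0.95, Spearman rho = 0.84), *TSPAN17* (0.94 and 0.85), *FAM210B* (0.94 and 0.81), *RHCE* (0.93 and 0.84) and *HBA2* (0.93 and 0.77). These coefficients describe libraries that fall into sets and share depth, and carry no test. Of these 5, 4 were higher in KO at an edgeR adjusted p below 0.05, beside 17.7% of all tested genes. The 5 were picked for following *ALAS2* over the KO libraries, so these calls are not independent of its upper KO set. By edgeR the 4 were *RHCE* (log2 fold change 1.53, adjusted p = 0.00655), *FAM210B* (0.53, adjusted p = 0.00128), *TAL1* (0.39, adjusted p = 0.0258) and *TSPAN17* (0.33, adjusted p = 0.0279). *HBA2* had a log2 fold change of -0.50 (SE 0.45, edgeR adjusted p = 0.411). Reads of *RHCE* and *HBA2* can be split with the near-identical copies *RHD* and *HBA1*, so their values are uncertain. The members themselves shared no stretch of 50 bases in their last 500 transcript bases with another gene.

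Around the pathway, 40 further genes of heme metabolism were counted in 4 lists, of which 37 were tested. Of these, 6 rose and 9 fell, 15 in all (40.5%, beside 33.8% of all tested genes), the median log2 fold change was -0.04, and *FAM210B* alone was past 0.5. *NFS1*, *FLVCR2* and *HMOX1* were under the filter.

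Of 12 genes that supply substrates and carry them into the mitochondrion, 3 rose and 1 fell (33.3%, beside 33.8% of all tested genes). *FAM210B*, a mitochondrial protein of erythroid heme synthesis, rose by 0.53 on the log2 scale (SE 0.13), *SLC6A9*, the glycine transporter of the cell surface, by 0.46 (SE 0.10) and the porphyrin transporter *ABCB6* by 0.40 (SE 0.15), while *TMEM14C*, which takes protoporphyrinogen IX inward, had a log2 fold change of -0.18 (SE 0.04). The erythroid iron importer mitoferrin, *SLC25A37*, was at 0.07 (edgeR adjusted p = 0.706). Among 9 genes that govern ALA synthase or answer to heme, *BACH1*, a repressor that heme inactivates, rose (log2 fold change 0.25), and *CLPP* (-0.34) and *LONP1* (-0.21), mitochondrial proteases, and the stress factor *NFE2L2* (-0.23) fell. *CLPX*, the unfoldase that activates and turns over ALA synthase, was at -0.10 (edgeR adjusted p = 0.109). Of these 9 genes, 44.4% passed.

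Of 7 genes of iron-sulfur cluster assembly 6 were tested, of which 1 rose and 3 fell (66.7%, beside 33.8% of all tested genes). *GLRX5* rose (log2 fold change 0.32), and those that fell included *LYRM4* (-0.22) and the scaffold *ISCU* (-0.19). Of 12 genes of heme export, use and breakdown 10 were tested, of which 30% passed. The exporter *FLVCR1* rose (log2 fold change 0.31), and *COX10* (-0.25) and *HCCS* (-0.15), which build heme into the respiratory chain, fell. All these calls are edgeR's, at an adjusted p below 0.05 over all tested genes.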

How the data were processed

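Bulk SCRB-seq of 26 KO and 11 Control K562 libraries was analysed. The authors mapped reads to hg38 with STAR (2.6.0a in the submitters' processing notes) and obtained UMI counts from zUMIs on the Ensembl annotation GRCh38.84. For zUMIs the version and strand setting were not stated in the sources used here. The deposited values are raw UMI counts. UMI counts differ between libraries from 563235 to 4710809 in total, so thinly counted genes carry larger counting error.

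Columns were matched to labels by barcode. Symbols (31323 matched) and positions came from GENCODE 44 on GRCh38. No 2 libraries of a group agreed within sampling noise (380 pairs, chi-square over genes with at least 10 counts), and none were merged. In R 4.3.3 with edgeR 4.0.16, 10661 genes passed the default filter and were fitted by TMM and a robust quasi-likelihood test of KO against Control, with Benjamini-Hochberg adjustment, a threshold of 0.05 and, where stated, an absolute log2 fold change above 0.5. The study used limma, which is an alternative here (limma 3.58.1), with DESeq2 1.42.0, other scalings, filters, barcode class, thinning and leaving out each library. Scripts were tested on simulated data.

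The members and gene lists were chosen with earlier results of these data known. Named genes were all members, the called genes of the lists with a few others, and the 5 genes most like *ALAS2*. *SLC25A37*, *CLPX*, *APEX2*, and the lineage genes and *GLRX5* set beside the *ALAS2* libraries, were named after their values were seen. A planned correlation of *ALAS2* with the other members was not given, because libraries fall into separate sets for *ALAS2* in both groups. Values of some listed genes are not reported here.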

Additional observations from a re-analysis of the deposited data

How the results depend on the processing

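The number of members past the threshold was 5, and 5 to 6 when each library was left out in turn. No member changed sign under any alternative run. Besides *SLC25A38*, whose call changed as given above, no member's call at an adjusted p of 0.05 changed. When each library was left out, the log2 fold change ran from 1.32 to 1.54 for *ALAS2* and from -0.45 to -0.39 for *ALAS1*, and the other settings gave 1.18 (limma-voom) to 1.80 (AT-rich barcodes) and -0.57 to -0.39. With barcode class as covariate *ALAS2* was at 1.66 and *PPOX* at 0.59. The difference in median *ALAS2* share ran from 21.1 to 32.9 percentage points when each library was left out and was 35.7 among AT-rich barcodes.

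The number of genes called among all tested, 1085, ran from 1044 to 1126 when each library was left out. It was 1720 with no filter (32055 genes tested), 672 at a mean of at least 10 CPM (8588 tested), 627 after thinning to the smallest total (7885 tested) and 3606 at the adjusted p alone. No paired analysis was possible because the labels give no replicate numbers. Depth limits *ALAD*, *ALAS2* and *ALAS1*, with as few as 8, 11 and 16 UMIs in a library.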
